A study of Mus musculus with 10 samples.

Results

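The genes followed here are 10 members of the bone morphogenetic protein (BMP) pathway: the ligands *Bmp2*, *Bmp4* and *Bmp7*, the target genes *Id1*, *Id2*, *Id3*, *Smad6* and *Bambi*, and the secreted antagonists *Grem1* and *Nog*. They were chosen by name among the 23197 genes of the count table, and all 10 were found in it. Mouse embryonic fibroblasts (MEFs) from ICR embryos were turned toward cells like those of extraembryonic endoderm (XEN) with the cocktail C6FAE. It holds CHIR99021, an inhibitor of GSK3, RepSox, an inhibitor of the TGF-beta receptor ALK5, Forskolin, which raises cAMP, the retinoid AM580 and EPZ004777, an inhibitor of DOT1L. Single cells were picked by hand before treatment (d0) and on days 1, 2, 3, 4, 5, 6, 8, 12 and 20 of the course (d1 to d20; cells of day 6 carry the name d6p, and what its p stands for is not given). On days 8 and 12, cells were also picked from colonies (d8c and d12c), which makes 12 groups of cells. Every group after d0 received the same cocktail, and no group of the same age without it was analysed, so that time in culture and treatment cannot be told apart.

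Transcripts were counted per cell by unique molecular identifiers (UMIs), short tags that let copies of 1 RNA molecule be counted once, and are given per 1000000 UMIs of the cell without spike-ins (CPM). Of 808 cells, the 670 with at least 4000 detected genes were kept, with a median of 510306 UMIs and a range from 17633 to 6004864. Groups held between 20 cells (d8c) and 86 cells (d6p), with a median depth between 195480 UMIs (d20) and 1055206 (d2). No cell name and no set of counts occurred more than once. The series lists 10 samples, but cell names give only the group and a running number, so that no cell could be assigned to a sample. Each group was therefore 1 sample, cells did not count as replicates, and groups were compared without a test. SDs and quartiles below are over cells, and the 95% intervals of UMI sums (exact Poisson) and of shares (exact Clopper-Pearson) cover counting error only.

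BMP ligands bind pairs of type I and type II receptor kinases, which phosphorylate Smad1, Smad5 and Smad9, and these enter the nucleus together with Smad4. The *Id* genes, which encode inhibitors of basic helix-loop-helix transcription factors, are classical direct targets of this route. *Smad6* and *Bambi* are targets that act back on it, as an inhibitory Smad and a pseudoreceptor, while Gremlin 1 and Noggin bind the ligands outside the cell. In the embryo, *Bmp2* is expressed in the visceral endoderm, a part of the extraembryonic endoderm, and BMP4 is needed for mesoderm.

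The labelled identities were checked against markers. The summed level of 7 fibroblast markers had a median of 2425 CPM in d0, 8141 in d8, 3050 in d8c and 6236 in d12, against 241 in d20. The sum of 11 XEN markers had medians between 29.5 and 65.8 CPM from d0 to d12, 871 in d12c and 1544 in d20. Not every marker followed its sum. *Pdgfra* averaged 28.2 CPM in d0 and 201 in d20, while the other fibroblast markers had lower means in d20 than in d0. Among XEN markers, *Dab2* averaged 55.1 CPM in d0 and 56.5 in d20 and *Amn* 0 and 0.60, while the others had clearly higher means in d20. *Sox17*, which encodes an endoderm transcription factor, averaged 0.11 CPM in d0 cells, 70.8 in d12, 470 in d12c and 982 in d20. *Foxa2* was without a UMI in all groups from d0 to d8c. As a level for leftover signal, the collagen gene *Col1a1* had a UMI in 5 of 38 d20 cells (13.2%) and 3.63 CPM on average. A share of d20 cells at or below this was read as background. This rule uses the share alone, so that a few cells with a high level also fall under it. The level depends on the marker, since *Col1a2* had a UMI in 12 of 38 d20 cells (31.6%) and *Thy1* in 23 (60.5%).

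The d12c cells were not of 1 kind. The 21 kept cells numbered 1 to 24 had a median fibroblast marker sum of 4019 CPM and an XEN sum of 196, whereas the 30 kept cells numbered 49 to 96 had 174 and 1104. Whether ranges of numbers stand for separate libraries is not given by the names. The d12c values of the 10 genes are therefore also given for these ranges. *Sox17* averaged 212 CPM in the first and 650 in the second. At d4 the cells numbered 1 to 48 and 49 to 96 differed too, with median depths of 778218 and 322066 UMIs.

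The ligands were described first. *Bmp2* was low at d0, was higher within the first days, lower again at d6p and d8, high in d12 and d20 and uneven in d12c. Its mean was 5.71 CPM in d0, 62.0 in d1, 118 in d2, 59.8 in d3, 38.5 in d4 and 39.7 in d5. It was 20.9 in d6p and 14.5 in d8, but 72.8 in the d8 colonies, and then 138 in d12, 104 in d12c and 99.4 in d20. The d12c mean was 77.7 CPM without the highest cell, and means over ranges of 24 numbers within d12c ran from 35.5 to 199 CPM. The means hid wide spreads between cells. At d0 the lowest, median and highest cells had 0, 2.55 and 52.1 CPM, at d2 0, 83.0 and 411, at d6p 0, 0 and 404, at d12 0, 34.3 and 1338, and at d20 0, 83.2 and 315. The quartile range of d0 (0 to 6.06 CPM) lay below those of d2 (23.8 to 187) and of d20 (11.1 to 159) and overlapped the others. Most d6p and d8 cells thus held little *Bmp2*, with 11 of 86 and 9 of 62 cells at 20 CPM or more, against 67 of 83 in d2 and 28 of 38 in d20. With every cell thinned to 50000 UMIs, a *Bmp2* UMI was found in 28.2% of d0 cells, 80.5% of d2 cells, 17.3% of d6p cells, 62.1% of d12 cells and 69.4% of d20 cells (95% interval at d20, 51.9% to 83.7%).

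**Figure D1:**
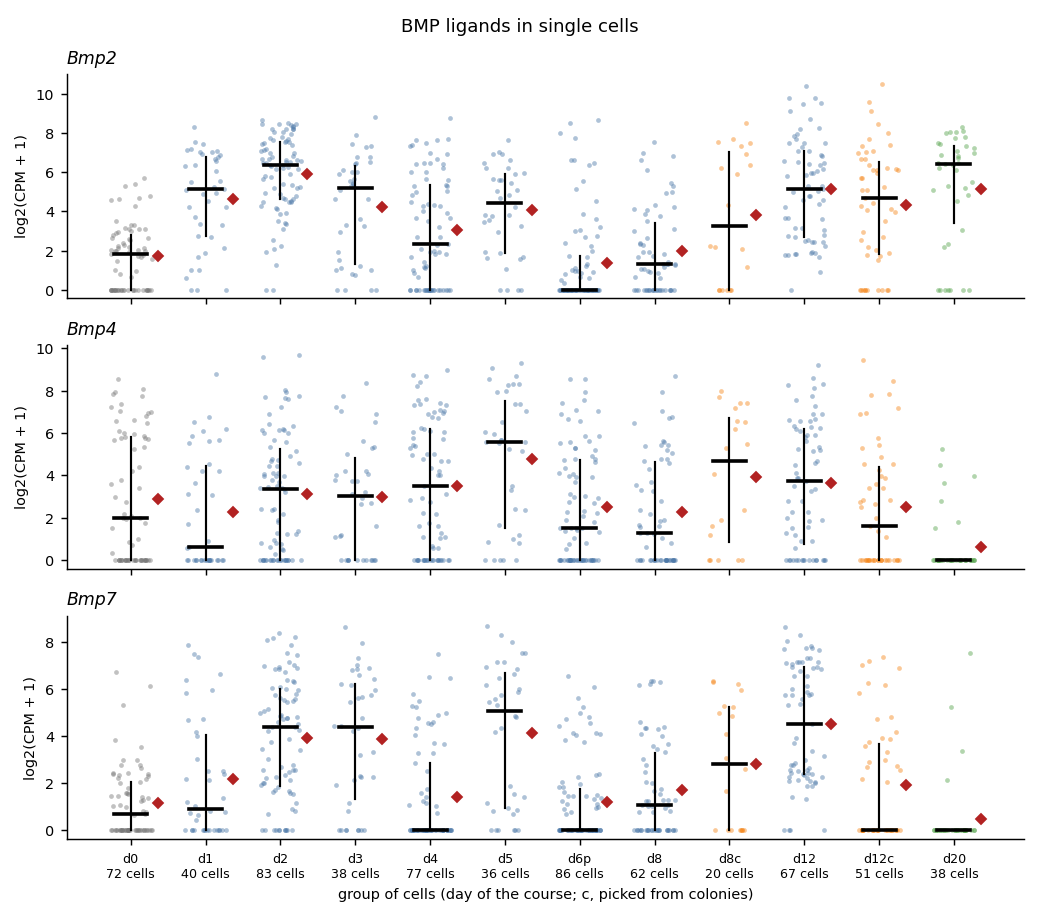
Level of each BMP ligand in single cells, as log2(CPM + 1), in the 12 groups. Points are cells, the bar and line are the median and quartiles, and the red diamond is the mean; orange marks cells from colonies. *Bmp2* has medians of 83.0 CPM in d2 and 83.2 in d20 and of 0 in d6p, while *Bmp4* and *Bmp7* have medians of 0 in d20.

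*Bmp4*, which was expressed in a part of the fibroblasts from the start, had another time course. Its mean was 43.0 CPM in d0, 27.0 in d1, 51.5 in d2, 34.8 in d3 and 61.2 in d4, reached 122 in d5, and was 30.4 in d6p and 25.2 in d8. It was 65.1 in d8 colonies, 59.1 in d12, 42.9 in d12c and 2.48 in d20. The d0 cells ran from 0 to 374 CPM around a median of 2.92, with 26 of 72 cells at 20 CPM or more, and the d5 cells from 0 to 625 around 46.1. At d20 only 19 UMIs were counted over 38 cells (interval 11.4 to 29.7), the highest cell had 36.3 CPM, and 7 cells (18.42%) had any UMI, a share above that of *Col1a1* and below that of *Col1a2*. The d20 quartile range was 0 to 0 CPM and lay below those of d5, d8c and d12.

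*Bmp7* followed neither. Its mean was 4.53 CPM in d0, 24.6 in d1, 48.5 in d2, 52.1 in d3, 10.0 in d4, 69.8 in d5, 5.85 in d6p, 9.61 in d8, 22.6 in d8c, 68.7 in d12, 17.97 in d12c and 6.13 in d20. The lowest, median and highest cells had 0, 0.58 and 103 CPM in d0, 0, 32.9 and 406 in d5, and 0, 21.9 and 394 in d12. The groups with high and low *Bmp7* alternated from d3 to d6p, and so did depth, with medians of 763742, 463474, 751825 and 411772 UMIs from d3 to d6p. With every cell thinned to 50000 UMIs, a *Bmp7* UMI was still found in 43.2% of d3 cells, 16.4% of d4 cells, 60.0% of d5 cells and 19.8% of d6p cells. Within d4, the mean was 1.71 CPM in cells numbered 1 to 48, which were the deeper ones, and 19.0 in those numbered 49 to 96. At d20 the mean rested on 1 cell of 184 CPM and was 1.31 CPM without it, with a UMI in 4 of 38 cells (10.5%), a share in the range of the background.

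Cells that held UMIs of all 3 ligands numbered 50 of 67 in d12 and 52 of 83 in d2, against 20 of 72 in d0 and 1 of 38 in d20. Cells without a UMI of any of them numbered 10 in d0, 16 of 86 in d6p, 1 in d12 and 7 in d20. Both counts were taken without thinning and depend on depth. Median depths were 768565 UMIs in d12, 1055206 in d2, 344196 in d0, 411772 in d6p and 195480 in d20. Within groups, *Bmp2* and *Bmp4* had a Spearman's rho over cells from -0.14 (d5) to 0.35 (d4), with a median of 0.14. These correlations, like those below, are over cells that share libraries and differ in depth.

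The *Id* genes were detected in nearly every cell up to d12. UMIs of all 3 were found in 72 of 72 d0 cells, 67 of 67 d12 cells, 49 of 51 d12c cells and 32 of 38 d20 cells. Mean levels were above d0 from d1 to d5, with no steady rise, were near the d0 level at d6p and were lowest at d20. The mean of *Id1* was 336 CPM in d0, 779 in d1, 712 in d2, 1002 in d3, 506 in d4, 1004 in d5, 311 in d6p, 533 in d8, 460 in d8c, 782 in d12, 412 in d12c and 202 in d20. The mean of *Id3* was 1016 CPM in d0, 1281 in d1, 1531 in d2, 2150 in d3, 1483 in d4, 2268 in d5, 1103 in d6p, 2118 in d8, 1426 in d8c, 1495 in d12, 989 in d12c and 354 in d20. Both genes thus had their highest means at d3 and d5, and *Id3* was almost as high at d8. From d3 to d6p these means alternated, as did median depth, with 763742, 463474, 751825 and 411772 UMIs. The part of depth in this was not tested.

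*Id2* parted from the other *Id* genes in the d12 colonies. Its mean was 283 CPM in d0, 511 in d1, 611 in d2, 571 in d3, 530 in d4, 607 in d5, 339 in d6p, 441 in d8, 360 in d8c, 678 in d12, 988 in d12c and 214 in d20. The d12c value was 617 CPM over cells 1 to 24 and 1248 over cells 49 to 96, whereas *Id1* had 687 and 219 and *Id3* 1158 and 871 in the same ranges. Within d4, *Id2* averaged 327 CPM over cells 1 to 48 and 750 over cells 49 to 96, while *Id1* had 541 and 467.

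Single cells showed the same low level at d20. For *Id3*, the lowest, median and highest cells had 109, 950 and 3107 CPM in d0, 222, 1946 and 4927 at d8 and 0, 251 and 1715 at d20, and the d20 quartile range (111 to 536 CPM) lay below those of the 9 groups from d0 to d8c. For *Id1*, the d20 quartiles (56.7 and 242 CPM) lay below those of 7 groups, and for *Id2* (16.9 and 317 CPM) below d2 alone. The sum of the 3 *Id* genes had a median of 1434 CPM in d0, 3390 in d5, 1561 in d6p, 2608 in d12 and 559 in d20. Neighbours in the order of mean log2 levels had overlapping quartile ranges throughout, in 11 of 11 neighbouring pairs for each of the 10 genes. Such neighbours are the pairs closest in level, so that this says little of groups further apart.

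**Figure D2:**
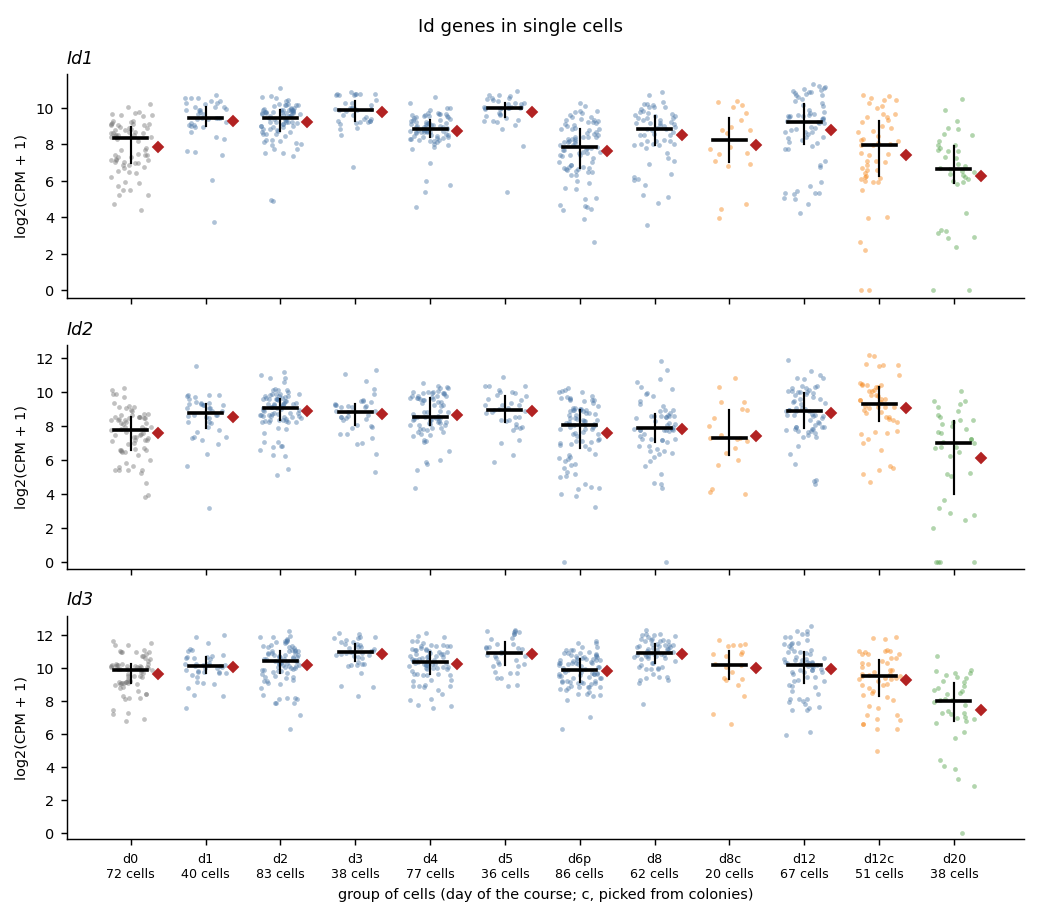
Level of the *Id* genes in single cells, as log2(CPM + 1), in the 12 groups, drawn with points for cells, a bar and line for the median and quartiles and a red diamond for the mean. The d20 cells are lowest for all 3 genes by mean, with 202 CPM for *Id1*, 214 for *Id2* and 354 for *Id3*.

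Within each group, cells with more of 1 *Id* gene tended to hold more of the others. Spearman's rho of *Id1* and *Id3* was above 0 in 12 of 12 groups, from 0.23 in d1 to 0.63 in d4, with a median of 0.46. It was above 0 in 12 of 12 groups for *Id1* and *Id2* (0.05 to 0.55, median 0.30) and for *Id2* and *Id3* (0.02 to 0.54, median 0.27), where the value of d12 was 0.02 and thus near 0. The ligands had median rho values nearer 0 with them. *Bmp2* and *Id1* had a median rho of 0.03 (-0.18 to 0.29), *Bmp2* and *Id3* of -0.01 (-0.30 to 0.22) and *Bmp4* and *Id1* of -0.04 (-0.42 to 0.37). That of *Bmp7* and *Id1* was 0.03 (-0.25 to 0.49). A UMI was found in 512 of 670 cells for *Bmp2*, 427 for *Bmp4* and 398 for *Bmp7*, against 666 for *Id1*. The part of missing ligand UMIs in these values was not tested.

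The promoters of *Id2* and *Id3* are shown as those of the *Id* genes that could be matched, from 250 bases before to 50 after the RefSeq start on GRCm38.p6. RefSeq promoters were matched for 5 of the 10 genes (*Id2*, *Id3*, *Smad6*, *Bmp4* and *Grem1*). Capitals mark matches on either strand to GGCGCC, bound by Smad1, GTCTG, the short Smad element, and TGACG, the core of the cAMP response element. The *Id2* promoter lies at chr12:25096043-25096342 on the minus strand and that of *Id3* at chr4:136143572-136143871 on the plus strand.
Id2: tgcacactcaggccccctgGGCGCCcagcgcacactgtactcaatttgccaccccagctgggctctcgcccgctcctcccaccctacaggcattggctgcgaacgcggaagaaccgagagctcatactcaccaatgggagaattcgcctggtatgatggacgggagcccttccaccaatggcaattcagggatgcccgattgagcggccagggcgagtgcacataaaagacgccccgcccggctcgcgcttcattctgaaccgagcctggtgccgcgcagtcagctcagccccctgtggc
Id3: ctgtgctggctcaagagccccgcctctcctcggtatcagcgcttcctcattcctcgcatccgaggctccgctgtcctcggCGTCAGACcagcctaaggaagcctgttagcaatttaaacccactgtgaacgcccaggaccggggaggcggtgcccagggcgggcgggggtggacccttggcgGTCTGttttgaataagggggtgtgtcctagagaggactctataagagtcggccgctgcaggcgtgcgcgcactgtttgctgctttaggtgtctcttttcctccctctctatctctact
The *Id2* window held 1 GGCGCC, starting 231 bases before the start. The *Id3* window held GTCTG at 167 and 68 bases before the start and TGACG at 170 bases before it, where the first overlaps the TGACG match. Of 32851 promoters of this length, 11.9% held GGCGCC, 49.6% GTCTG and 20.8% TGACG. The *Smad6* and *Bmp4* windows held none of the 3, and that of *Grem1* held 1 GGCGCC and 2 GTCTG.

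*Smad6* and *Bambi* act back on the receptors. *Smad6* was sparse, with a UMI in 258 of 670 cells, group means from 2.33 CPM (d8c) to 11.8 (d5) and a median of 0 in 8 of 12 groups. Its highest median was 8.67 CPM in d3. It averaged 8.13 CPM in d0, 3.99 in d12, 3.64 in d12c and 8.88 in d20. The d12c cells 1 to 24 had 5.38 CPM and cells 49 to 96 had 2.42, and the d20 value came from 6 of 38 cells (15.8%). Quartile ranges overlapped between all 66 pairs of groups, which was certain because the lower quartile was 0 CPM in all 12 groups.

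*Bambi*, which encodes a receptor without a kinase domain, was highest from d3 to d5 and lowest at d12. Its mean was 31.2 CPM in d0, 31.6 in d1, 39.4 in d2, 70.8 in d3, 67.2 in d4, 81.3 in d5, 24.4 in d6p, 52.5 in d8, 44.5 in d8c, 9.19 in d12, 59.6 in d12c and 32.1 in d20. The medians were 3.86 CPM in d0, 48.5 in d3, 77.5 in d5, 5.80 in d8, 0.89 in d12, 14.4 in d12c and 10.1 in d20. At d8 the mean rested in part on 1 cell of 1319 CPM and was 31.8 without it. The d12 cells ran from 0 to 69.5 CPM, and their upper quartile (3.50 CPM) lay below the lower quartiles of d3 (22.2), d4 (4.98), d5 (4.28) and d8c (5.48). In d12c it averaged 17.6 CPM over cells 1 to 24 and 88.9 over cells 49 to 96.

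The antagonists were uneven between cells. *Grem1* had a UMI in 60 of 83 d2 cells, 55 of 67 d12 cells and 1 of 38 d20 cells. It averaged 21.5 CPM in d0, 8.80 in d1, 43.1 in d2, 20.6 in d3, 15.8 in d4, 25.5 in d5, 19.3 in d6p, 13.3 in d8, 10.8 in d8c, 51.5 in d12, 51.4 in d12c and 0.13 in d20. The d12 cells ran from 0 to 630 CPM with a median of 3.90 and 26 of 67 cells at 20 CPM or more. The d12c mean came largely from 1 cell of 2064 CPM and was 11.2 CPM without it. Cells 1 to 24 averaged 124 CPM and cells 49 to 96 averaged 0.68 CPM. At d20, 1 UMI was counted in 1 of 38 cells (interval 0.025 to 5.57 UMIs), and none after thinning, so that the gene was not detectable above background there.

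*Nog* had a median of 0 in all 12 groups and a UMI in 219 of 670 cells. Its mean was 13.1 CPM in d0, 1.21 in d1, 15.3 in d4, 8.77 in d8, 7.73 in d12, 8.96 in d12c (11.7 in cells 1 to 24 and 7.07 in cells 49 to 96) and 11.9 in d20. The d20 value came from 4 of 38 cells (10.5%), a share in the range of the background, though the highest cell had 234 CPM. Single cells made much of this, since without the highest cell the means were 9.36 CPM in d0, 10.3 in d4, 5.60 in d8, 4.23 in d12 and 5.92 in d20. At 20 CPM or more there were 10 of 72 cells in d0, 13 of 77 in d4, 1 of 40 in d1 and 3 of 38 in d20. No order between groups could be read from these values.

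**Figure D3:**
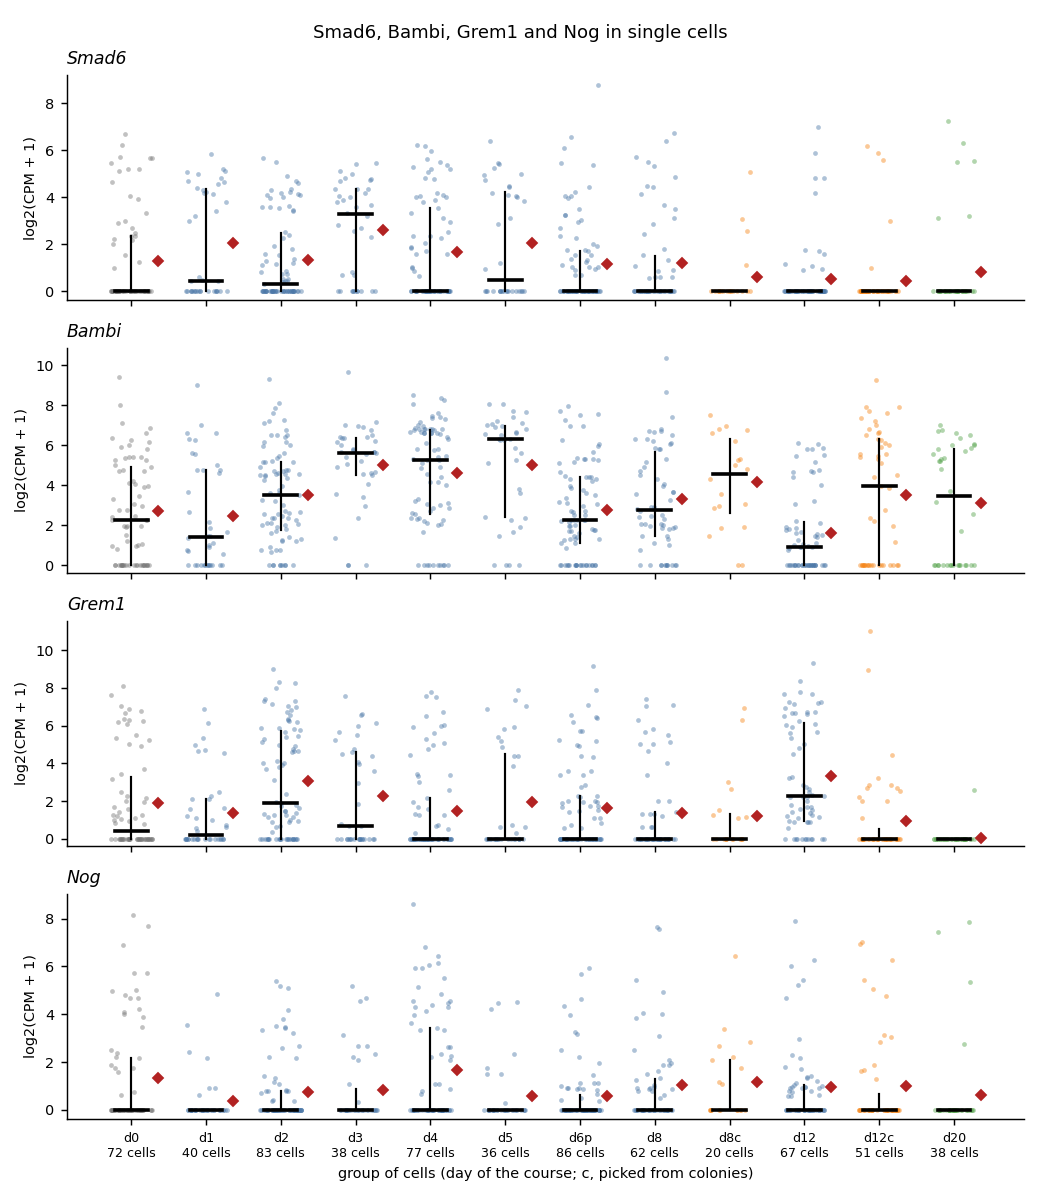
Level of *Smad6*, *Bambi*, *Grem1* and *Nog* in single cells, as log2(CPM + 1), in the 12 groups, drawn with points for cells, a bar and line for the median and quartiles and a red diamond for the mean. *Bambi* has its lowest mean at d12 (9.19 CPM), where *Grem1* has its highest (51.5 CPM), and *Grem1* is at 0 in 37 of 38 d20 cells.

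Differences between groups were then taken as differences in mean log2(CPM + 1), where 1 stands for 2-fold. Only genes whose mean reached 1 in 1 of the groups were compared, and a gene was called where the difference was over 1 in size. Several comparisons share d0, d8 or d12 and are not independent. At d1 against d0, 3 of 10 genes were called, all higher, namely *Bmp2* by 2.91, *Id1* by 1.39 and *Bmp7* by 1.02. Of 9441 genes, 23.9% were called, 19.3% higher and 4.57% lower, and the median difference was 0.43 over all genes and 0.58 over the 10. With summed UMIs, 11.3% of all genes were higher and 12.5% lower, with a median difference of 0.013. The same 3 genes were then called higher, and *Grem1* and *Nog* lower. *Id2* differed by 0.95 and *Nog* by -0.94. The call of *Bmp7* was lost with cells thinned to 50000 UMIs, with a pseudocount of 10 and without the highest cell, and d1 was the deeper group (749158 UMIs against 344196).

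At d5 against d0, 7 of 10 genes were called higher, where 35.5% of 9898 genes were called, 29.1% higher and 6.38% lower. The differences were 2.98 for *Bmp7*, 2.36 for *Bmp2*, 2.29 for *Bambi*, 1.92 for *Id1*, 1.90 for *Bmp4*, 1.31 for *Id2* and 1.21 for *Id3*. *Smad6* differed by 0.78, *Grem1* by 0.09 and *Nog* by -0.75. The median difference was 1.61 over the 10 genes and 0.52 over all genes, and d5 was the deeper group, with a median of 751825 UMIs against 344196. All 7 differences were also over 1 after thinning every cell to 50000 UMIs, but with UMIs summed over the cells of a group *Id2* and *Id3* were not called and *Nog* was called lower. At d8 against d0, *Id3* alone was called (1.18), where 30.8% of 9557 genes were called, 17.1% higher and 13.7% lower. *Bmp2* differed by 0.27, *Id1* by 0.62 and *Bmp4* by -0.61.

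In d8 colonies against d8, the 3 ligands were called higher, *Bmp2* by 1.82, *Bmp4* by 1.68 and *Bmp7* by 1.11, and no other gene of the 10. Of 9278 genes 20.6% were called, 4.59% higher and 16.0% lower, and the median difference was -0.30 over all genes. The d8c group held 20 cells, and its median fibroblast marker sum was 3050 CPM against 8141 in d8, whose part in these values was not tested. The call of *Bmp7* was lost without the highest cell, under each other filter on cells and with a pseudocount of 10, and that of *Bmp4* with this pseudocount and with summed UMIs. The *Id* genes differed by -0.45 to -0.83. At d12 against d8, *Bmp2* (3.16), *Bmp7* (2.78), *Grem1* (1.97) and *Bmp4* (1.37) were called higher and *Bambi* (-1.67) lower. Of 9708 genes 28.8% were called, 14.2% higher and 14.6% lower, and with the size factors of DESeq2 17.4% and 11.6%. The call of *Bmp4* was lost with thinning, summed UMIs and a pseudocount of 10, and those of *Grem1* and *Bambi* with this pseudocount. *Id1* differed by 0.27, *Id2* by 0.93 and *Id3* by -0.89, and none of the 3 was called, though *Id2* was with TMM or DESeq2 scaling and *Id3*, as lower, with a minimum of 6000 genes.

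At d12c against d12, 9 genes could be compared. *Bambi* was called higher by 1.87, and *Bmp7* (-2.60), *Grem1* (-2.38), *Id1* (-1.35) and *Bmp4* (-1.14) lower, where 32.9% of 9422 genes were called, 9.45% higher and 23.5% lower. *Bmp2* differed by -0.81 and *Id2* by 0.30. The filter had removed 45 of 96 d12c cells, and with no filter on cells *Bmp2*, *Id2* and *Id3* were called lower too and *Bambi* was not called, with 62.3% of all genes lower. The call of *Bmp4* was lost with thinning, summed UMIs, a pseudocount of 10 and a minimum of 6000 genes, that of *Id1* with this minimum and summed UMIs, and that of *Grem1* with summed UMIs. These values depended on the range of numbers. With d12c cells 1 to 24 only *Grem1* was called, and *Id1* differed by 0.08, whereas cells 49 to 96 kept all 5 calls and added *Bmp2* as lower. The *Bmp2* mean was 199 CPM in the first range and 37.6 in the second, *Bmp4* had 79.3 and 17.4 and *Bmp7* 43.1 and 0.36. The fibroblast marker sum moved with these values, and its part in them was not tested.

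At d20 against d12, 8 genes could be compared, and 51.4% of 9749 genes were called, 30.9% lower and 20.5% higher. This balance turned with thinning (25% lower and 26.8% higher), with a minimum of 6000 genes (24.7% and 30.1%) and with summed UMIs (25.3% and 29.1%). *Bmp7* (-4.01), *Grem1* (-3.26), *Bmp4* (-3.02), *Id2* (-2.69), *Id3* (-2.51) and *Id1* (-2.47) were lower and *Bambi* was higher (1.46). *Bmp2* differed by 0.02, and its mean log2 value was 5.17 in d20 and 5.14 in d12. The 6 lower calls were kept under each of these settings, while that of *Bambi* was lost with no filter on cells, where *Bmp2* was called lower, and with a pseudocount of 10. The difference of *Grem1* depends on the pseudocount, since the d20 cells held 1 UMI. At d20 against d0, *Bmp2* was called higher by 3.46, and *Bmp4* (-2.26), *Id3* (-2.22), *Grem1* (-1.82), *Id1* (-1.58) and *Id2* (-1.47) were lower, where 40.1% of 9352 genes were called, 15.0% higher and 25.1% lower. *Bmp7* differed by -0.67 and *Bambi* by 0.38. The call of *Id2* was lost with a minimum of 6000 genes, summed UMIs and a pseudocount of 10, that of *Id3* with this minimum, that of *Id1* with summed UMIs and that of *Grem1* with the pseudocount. Means over ranges of 24 numbers within d20 stayed between 84.7 and 127 CPM for *Bmp2*, 166 and 239 for *Id1* and 289 and 374 for *Id3*. Filtering had removed 34 of 72 cells in d20, and the part of RNA quality in these values was not tested.

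**Figure D4:**
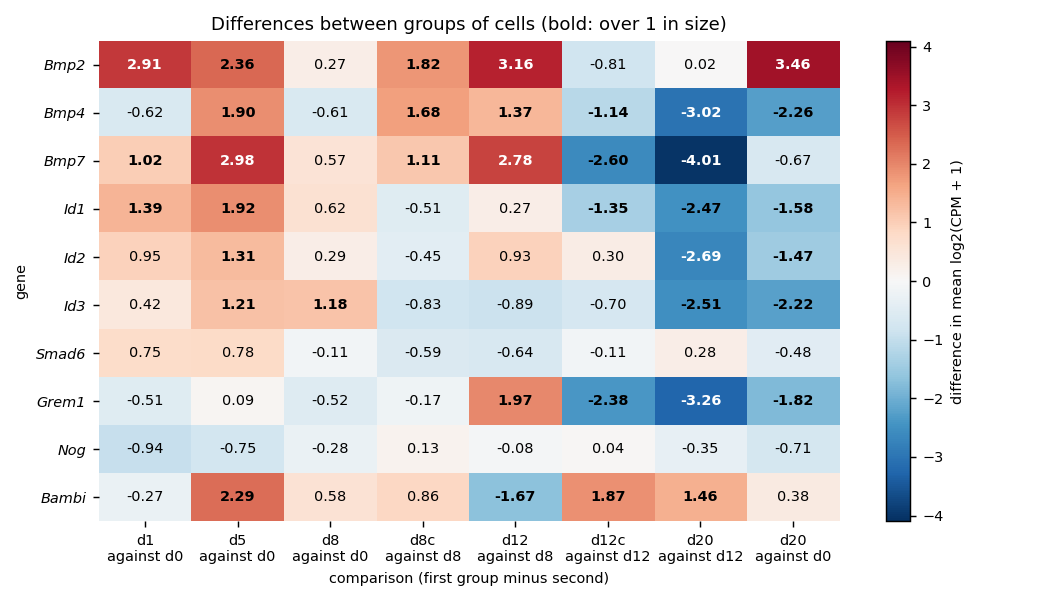
Difference in mean log2(CPM + 1) of the 10 genes (rows) in the 8 comparisons (columns), as first group minus second, with red for higher and blue for lower and bold for a size over 1. *Bmp2* differs by 3.46 between d20 and d0 and by 0.02 between d20 and d12, where the 3 *Id* genes differ by -2.47 to -2.69.

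The rest of the pathway was read from a list of 57 further genes. Of the type I receptors, *Bmpr1a* had group means from 6.75 CPM (d8c) to 32.3 (d3), *Acvr1* from 0.90 (d12c) to 13.0 (d1), *Acvrl1* from 0 (d8) to 10.6 (d0) and *Bmpr1b* from 0 (d8c) to 5.13 (d0). Of the type II receptors, *Bmpr2* ran from 20.7 CPM (d12c) to 48.4 (d6p), *Acvr2a* from 0.16 (d8c) to 13.1 (d0) and *Acvr2b* from 0.61 (d0) to 10.8 (d20). The co-receptor genes *Eng* (2.55 to 22.2 CPM), *Rgma* (1.34 to 11.9), *Rgmb* (1.35 to 22.1) and *Hfe2* (0 to 0.29) are listed by the same ranges. At d20 against d12, 3 of 7 receptors and co-receptors compared were called lower (*Rgma*, *Rgmb* and *Eng*) and 0 higher, where 30.9% of all genes were lower.

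Of the BMP Smads, *Smad1* and *Smad5* had their lowest group means at d20, while *Smad9* was sparse throughout, with a UMI in 118 of 670 cells. The d20 group was also the shallowest, with a median of 195480 UMIs. *Smad1* ran from 4.76 CPM (d20) to 27.6 (d5), *Smad5* from 1.82 (d20) to 31.1 (d5), *Smad9* from 0 (d20) to 4.95 (d0), and the shared partner *Smad4* from 13.3 (d8c) to 49.1 (d6p). The inhibitory *Smad7* ran from 6.32 CPM (d8) to 32.3 (d0). Of 9 genes of Smads and their regulators compared, 7 were called lower at d20 against d12 and 1 (*Tob1*, 1.04) higher, against 30.9% and 20.5% of all genes. The 7 were *Smad1*, *Smad7*, *Smad5*, *Smurf1*, *Ski*, *Smad4* and *Smurf2*.

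Among the 16 secreted antagonists and modulators, which bind or cleave ligands and their inhibitors, large differences were found outside *Grem1* and *Nog*. At d8 against d0, 7 of 10 compared were called higher and 1 lower, against 17.1% and 13.7% of all genes. *Sostdc1* rose by 4.90, with a mean of 20.2 CPM in d0, 395 in d6p and 781 in d8, 532 without the highest cell. *Nbl1* rose from 31.2 to 381 CPM and *Bmp1*, the protease that cleaves Chordin, from 24.3 to 106. *Fst*, which encodes Follistatin, fell by 3.71, from 325 to 47.3 CPM, and then had 1227 CPM in d12. At d12 against d8 *Fst* differed by 5.94 and *Sostdc1* by -3.02. At d12c against d12, 7 of 8 were called lower, against 23.5% of all genes. This count was not split by range of numbers. Of all genes, 11.3% were called with d12c cells 1 to 24 and 49.6% with cells 49 to 96. At d20 against d12 all 8 compared were called lower, against 30.9%, led by *Nbl1* (-6.00) and *Fstl1* (-5.33). No *Sostdc1* UMI was found in 38 d20 cells, which by a limit of 3 counts allows up to 7.895% of cells with a UMI at this depth, while *Fst* kept 496 CPM.

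**Figure D5:**
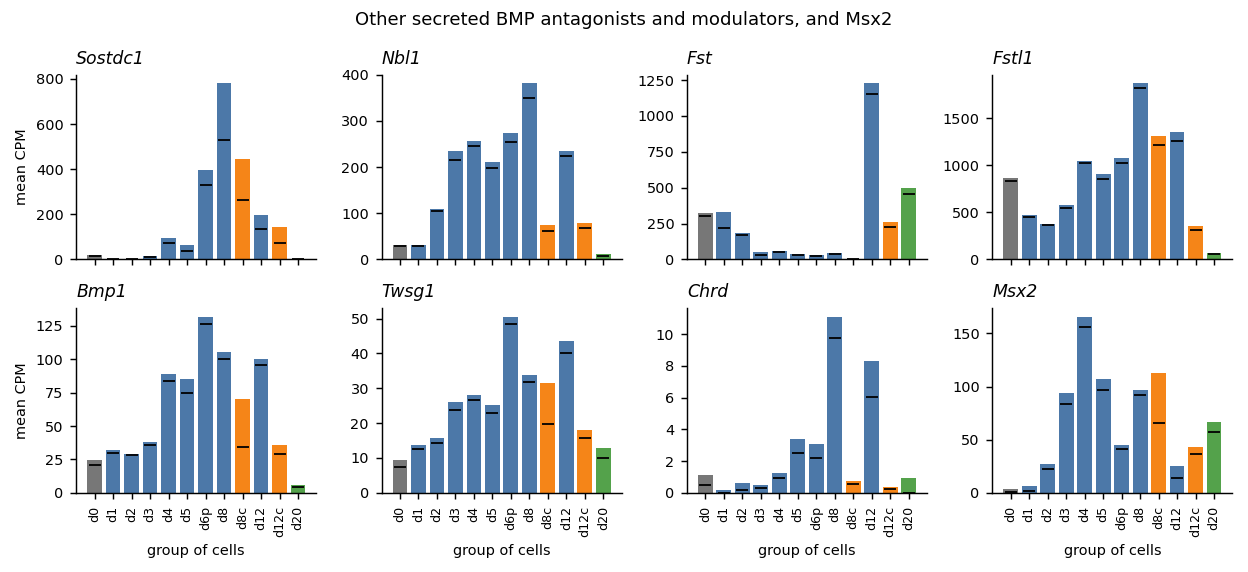
Mean CPM of 7 other secreted antagonists and modulators and of the target gene *Msx2* in the 12 groups, with a black tick for the mean without the highest cell. Each panel has its own axis from 0. *Sostdc1* and *Nbl1* are highest at d8 (781 and 381 CPM) and *Fst* at d12 (1227 CPM).

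The target gene *Msx2*, which encodes a homeobox factor, had a mean of 3.87 CPM in d0, 94.0 in d3, 166 in d4, 107 in d5, 45.2 in d6p, 97.1 in d8, 25.3 in d12 and 66.6 in d20. It was called higher at d5 (4.38) and d8 (4.55) against d0, lower at d12 against d8 (-3.43) and higher at d20 against d12 (2.11). Like *Bambi*, it thus had a lower mean in d12 than in d8 and d20. The d12c cells of the same day, taken as a whole, did not share this low. There *Bambi* averaged 59.6 CPM, against 9.19 in d12, and *Msx2* was called higher than in d12. For *Bambi* this depended on the range of numbers. In d12c cells 1 to 24 it averaged 17.6 CPM and was not called against d12, whereas in cells 49 to 96 it was called higher. *Msx2* was not split by these ranges. The d12 and d20 cells also differed in their markers, with median fibroblast sums of 6236 and 241 CPM. The part of cell kind, as against day, in these values was not tested. Of the other target genes, 5 of 6 compared were called higher at d5 against d0, namely *Msx2*, *Msx1*, *Hey1*, *Gata2* and *Runx2*, against 29.1% of all genes. Over all 57 genes, 3 were called higher and 4 lower at d1 against d0 (28 compared), 12 and 4 in d5 (32), and 11 and 6 in d8 (33). The shares of all genes were 19.3% higher and 4.57% lower at d1, 29.1% and 6.38% at d5, and 17.1% and 13.7% at d8. Led by *Rgmb* (1.96) and *Runx2* (1.59), the higher genes at d1 stood against *Skil* (-1.90) and *Id4* (-1.27) on the lower side. *Msx2* and *Nbl1* (3.31) led at d5, where *Fst* (-4.33) and *Skil* (-1.99) were lowest, and *Skil* was at -2.58 in d8.

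In d8 colonies against d8, 10 of the 30 compared were called lower and none higher, with *Nbl1* (-2.23) and *Bmp1* (-1.87) lowest, against 16.0% of all genes lower and 4.59% higher. At d12 against d8, 11 were higher, led by *Fst* and *Runx2* (2.56), and 6 lower of 33, against 14.2% and 14.6% of all genes. At d12c against d12, 2 of 30 were higher (*Tob1*, 1.66, and *Msx2*, 1.23) and 14 lower, led by *Fstl1* (-5.11), against 9.45% and 23.5%. These d12c counts were not split by range of numbers either. At d20, 2 of 30 were higher and 19 lower against d12, and 3 of 28 higher and 17 lower against d0, where *Msx2* (3.23) and *Tob1* (1.40) led and *Fstl1* (-4.80) and *Ski* (-3.15) were lowest. All genes were 20.5% higher and 30.9% lower against d12, and 15.0% and 25.1% against d0. Of the 11 further ligands, *Bmp6* was called, higher at d5 and d8 against d0 and lower in d8 colonies, with means from 0.80 CPM in d0 to 16.5 in d8. *Bmp15* and *Gdf2* had no UMI in any cell.

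*Bmp2* and *Sox17* were set side by side in single cells, a pair of genes that the study worked on. Spearman's rho was above 0 in 9 of the 10 groups where it was computed, from -0.14 in d12c to 0.51 in d8c, with a median of 0.11. In d8c, *Bmp2* averaged 139 CPM in the 8 cells with a *Sox17* UMI and 29.0 in the 12 without, and *Id1* 694 and 304. A single UMI sufficed here, and 2 of these 8 cells had 20 CPM of *Sox17* or more. The cells with *Sox17* were also deeper, with medians of 604774 and 338637 UMIs, and the part of depth in this was not tested. At d4 *Bmp2* averaged 34.2 CPM in 29 cells with a *Sox17* UMI, of which 6 had 20 CPM of it or more, and 41.1 in 48 without, where rho was 0.13. The d4 medians went the other way, with 11.6 and 3.15 CPM, and the median depths were 910511 and 327705 UMIs. Means with and without a *Sox17* UMI were 61.1 and 58.9 CPM in d3, 45.3 and 37.3 in d5 and 14.5 and 14.5 in d8. In d6p they were 67.9 and 12.6 CPM, with medians of 0.51 and 0. The cells with *Sox17* were deeper by median in these groups too. At d12, where rho was 0.09, only 4 cells were without a *Sox17* UMI.

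The genes most like each member were sought by Pearson's r of mean log2(CPM + 1) over the 12 groups among 9165 genes. These were *Tkt* (0.92) and *Trap1* (0.88) for *Bmp2*, *Napg* (0.88) and *Rab11b* (0.87) for *Bmp4*, and *Nav3* (0.95) and *1810011O10Rik* (0.91) for *Bmp7*. They were *Ptp4a3* and *Tmem134* (both 0.97) for *Id1*, *Phf23* (0.95) and *Epc1* (0.91) for *Id2*, and *Rbms2* (0.96) and *Jmjd8* (0.95) for *Id3*. For *Smad6* they were *Ptprm* (0.94) and *Slc33a1* (0.93), for *Grem1* *Egfr* (0.95) and *Opa3* (0.90), and for *Bambi* *Tmem63b* (0.89) and *Daxx* (0.88). *Nog* reached 0.81 with *Cnn3* and 0.76 with *Bnip3l*. Among the 10 genes, *Id1* had r of 0.87 with *Id3* and 0.74 with *Id2*, and *Bmp2* had 0.18 with *Id1*. With 12 points, values near 0.9 are the highest of 9165 and describe these groups only.

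On mm9, *Bmp2* spans chr2:133377895-133388621 and *Id1* chr2:152561987-152563146, both on the plus strand. *Bmp7* lies at chr2:172693513-172765822 and *Grem1* at chr2:113586321-113598803 on the minus strand. *Bmp4* lies at chr14:47003195-47010344, *Id2* at chr12:25778666-25780957, *Smad6* at chr9:63800953-63869866 and *Nog* at chr11:89161952-89163873, all on the minus strand, and *Id3* at chr4:135699412-135701670 on the plus strand. All 10 are annotated as protein-coding genes.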

How the data were processed

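The single-cell RNA sequencing table was used. As deposited, the values are counts that the authors made by splitting reads by cell barcode, trimming and aligning them to the mm9 mouse transcriptome, and removing duplicates by UMI; the aligner and any filter on cells are not given in the sources used here. The 92 spike-in rows, 5.43% of counts in kept cells, and 4 rows whose names had turned into repeated dates were left out of library sizes. No doublet caller was run on these hand-picked cells.

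The minimum for a cell was 4000 detected genes, and CPM were computed per cell, with a pseudocount of 1 for log2 values. Groups were compared by the difference in mean log2(CPM + 1), called over 1 in size, among genes whose mean reached 1 in 1 of the groups. Cells were also thinned to 50000 UMIs, for which 23 were too shallow. The comparison was tried on simulated cells with the depths and spread of d0, where only genes above a set level were changed. It did not cover changes in sparse genes, changes near 2-fold or groups of unequal depth. The genes, lists and rules were chosen with earlier results of these data known: all 10 members, the 2 most raised and 2 most lowered genes of the 57-gene list, all receptors and BMP Smads, and the 2 genes most alike to each member. A further gene of the list that the rule would name is not reported here. Alternatives were the minimum of detected genes (none, 2000 or 6000), TMM and DESeq2 scaling, a pseudocount of 10, thinning, no limit on low values, a difference over 2, summed UMIs and leaving out the highest cell. They were run for the 10 genes and the shares of all genes, not for the 57-gene list. The split of d12c by number was added after seeing the data.

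Positions are from GENCODE M1 on mm9. Python 3.11.15 was used with scipy 1.17.1, pandas 2.3.3 and numpy 2.4.6, and scaling factors came from R 4.3.3 with edgeR 4.0.16 and DESeq2 1.42.0.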

Additional observations from a re-analysis of the deposited data

How the results depend on the processing

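No paired analysis was possible because cell names do not give the sample, and leaving out samples in turn was not possible for the same reason. The 37 called differences of the 10 genes kept their direction under every alternative over all cells, except 1 under summed UMIs: *Grem1* at d12c against d12, which was 0.35 there. With d12c cells 1 to 24, *Id1* was 0.081. Of the 37, TMM, DESeq2 scaling and no limit on low values kept 37, the minimum of 2000 genes 36, leaving out the highest cell 35, no filter on cells and thinning 34 each, the minimum of 6000 genes 32, summed UMIs 28, a pseudocount of 10 kept 27 and a difference over 2 kept 17. Counts of called genes under a difference over 2 were 1 at d1, 3 at d5, 0 at d8 and 3 at d20 against d0 (3, 7, 1 and 6 as reported), 0 at d8c and 2 at d12 against d8 (3 and 5), and 2 at d12c against d12 (5). Summed UMIs gave 5 at d1 and 2 at d8 against d0, and 2 at d12c. The pseudocount of 10 gave 1 at d8c and 2 at d12 against d8. At d12c, the minimum of 6000 genes gave 3 and cells 1 to 24 gave 1. The other 76 of 90 counts stayed within 1.5 times. The cause was not tested. TMM moved the median difference of all genes from -0.20 to -0.47 at d20 and from -0.30 to -0.43 at d12c against d12, from -0.20 to -0.37 at d20 and from 0.52 to 0.39 at d5 against d0, and from -0.13 to 0.03 at d12 against d8. Shares of cells with a UMI are limited by depth, lowest at d20.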
